A study of Rattus norvegicus with 14 samples.

Results

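In heart muscle cells under a hypertrophic stimulus, 70 genes carried less RNA with the BET inhibitor JQ1 after 6 h and more RNA with it after 48 h. They were taken from 13184 measured genes by 3 conditions on group means of log2 expression. The mean with JQ1 lay at least 0.3 below the mean with vehicle at 6 h, it lay at least 0.3 above at 48 h, and the highest of the 5 group means was at least 7. Each gene was read from its brightest probe set among those with a single gene symbol. The genes were thus selected on the differences between JQ1 and vehicle, and these are given below as a description, with no test.

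The cells were neonatal rat ventricular myocytes from 2-day-old Sprague-Dawley pups, cultured after a pre-plating step of 1.5 h that removes non-muscle cells. Phenylephrine (PE) was given at 100 µM. JQ1 with PE was measured at 6 h (3 arrays) and 48 h (3 arrays), DMSO, the vehicle, with PE at 6 h (2 arrays) and 48 h (3 arrays), and DMSO without PE at 90 min (3 arrays, called unstimulated below). The 14 arrays carry labelled total RNA on an Affymetrix rat platform. All groups share the culture conditions, and no group received JQ1 without PE. The unstimulated arrays differ from the others in both PE and time in culture, which cannot be told apart. The labels do not state that replicate arrays are separate cultures. Their p-values therefore weigh array-to-array spread alone, and that spread may be technical. The labels' treatment protocol puts JQ1 or DMSO 6 h before PE while the design text puts PE first, and the JQ1 concentration is not given in the sources used here.

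BET proteins are chromatin readers that bind acetylated histone tails at active genes and help RNA polymerase to pass from pausing into elongation. JQ1 fills the acetyl-lysine pocket of their bromodomains and displaces them from chromatin. PE activates alpha1-adrenergic receptors, which signal through Gq to calcium, protein kinase C and MAP kinases, and cultured heart muscle cells answer by growing, rebuilding their contractile and metabolic gene programme and reactivating fetal genes. Loss of BET function is known to blunt that response.

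The distributions of the arrays nearly coincided, with medians between 7.28 and 7.43, and within-group correlations between arrays were 0.9976 to 0.9986 (Pearson's r) over 20223 probe sets. All 11 measured heart muscle markers lay above the dim limit of 6.23 (the 30th percentile of genes, below which a value is near background), and their mean stayed between 13.51 and 13.69 on every array. Single markers did move with JQ1, 4 lower and 2 higher than with DMSO at 6 h, and 5 lower and 4 higher at 48 h. The lowest at 48 h was Tnni3 (-1.55) and the highest Mybpc3 (0.65). Fibroblast markers were also bright and moved with JQ1: 9 of 12 fell at 6 h and all 12 fell at 48 h, against 28.8% and 29.6% of all genes. Their mean on an array was 10.30 to 10.33 with JQ1 and 10.81 to 10.85 with DMSO at 6 h, and 9.27 to 9.30 with JQ1 and 10.64 to 10.67 with DMSO at 48 h, with 1 marker (6 h) and 2 markers (48 h) dim under JQ1. Smooth muscle and pericyte markers moved the same way, with 8 of 12 lower and 3 higher at 6 h and 9 lower and 1 higher at 48 h. Their mean on an array was 9.03 to 9.07 with JQ1 and 9.43 with DMSO at 6 h, and 8.64 to 8.69 with JQ1 and 9.37 to 9.38 with DMSO at 48 h. None of the 70 genes is on a marker list, and the part of these other cells in the results below was not tested. In RNA from mixed cells, fewer cells of a type and less RNA per cell cannot be told apart.

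The reversal was rare among genes that JQ1 lowered early. Of 2258 genes bright enough for the rule and lower by at least 0.3 with JQ1 at 6 h, 1505 (66.7%) were still lower by at least 0.3 at 48 h, 683 lay between the limits and 70 (3.1%) were higher by at least 0.3. Seen from the late side, the 70 genes made up 3.33% of the 2102 bright genes that were higher by at least 0.3 at 48 h. The 2258 and the 2102 genes were both counted among the 8672 genes with a highest group mean of at least 7. Over all 13184 genes, those under that level included, 20.4% lay at or below -0.3 at 6 h and 17.8% at or above 0.3 at 48 h.

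The JQ1 minus DMSO difference of the 70 genes had a median of -0.46 at 6 h (lowest -2.37, highest -0.31) and of 0.42 at 48 h (lowest 0.30, highest 1.55). These medians correspond to 1.37-fold lower and 1.34-fold higher RNA. Most reversals were small, since 37 genes lay between -0.5 and -0.3 at 6 h and 44 between 0.3 and 0.5 at 48 h. The swing, meaning the 48 h difference minus the 6 h difference, exceeded 1 in 33 genes and 1.5 in 13, with a median of 0.97. All JQ1 arrays lay below all DMSO arrays at 6 h in 69 genes, against 34.3% of all genes, and all JQ1 arrays lay above all DMSO arrays at 48 h in 70, against 33.2% of all genes. Both held in 69 genes, against 4.56% of all genes, and the exception was Snapc5 at 6 h. Nothing is read from these counts, since the rule used the same contrasts.

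**Figure D1:**
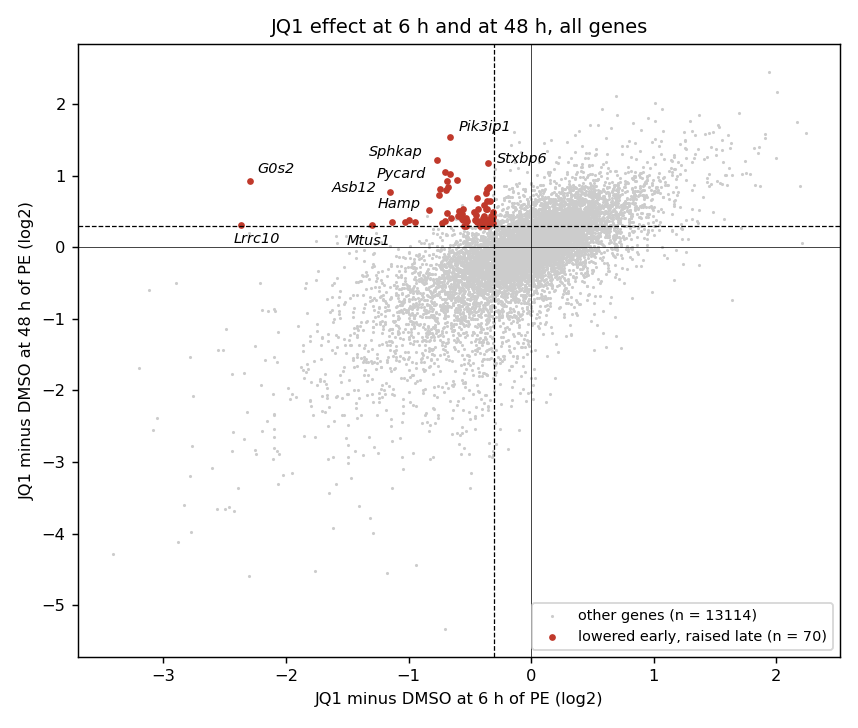
Difference between JQ1 and DMSO in mean log2 expression at 6 h of PE (horizontal axis) and at 48 h of PE (vertical axis) for 13184 genes, with the 70 chosen genes in red and the thresholds of -0.3 and 0.3 as dashed lines. Most red points lie close to the thresholds, Lrrc10 and G0s2 lie far to the left, and Pik3ip1 is the highest.

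Genes next to the thresholds show how closely the choice was made. Zfp266 and Cbr4 were just inside at 6 h (both -0.31), while Ypel3 and Klc4 were just outside (both -0.30 to 2 decimals). At 48 h Txn2 and Lzic were just inside (both 0.30), and Eola2 and Ptp4a3 were just outside (both 0.30 to 2 decimals), although Ptp4a3 was lower by 1.32 on the log2 scale at 6 h. The level limit was passed narrowly by Snapc5 (highest group mean 7.12) and Ccdc28b (7.32), and missed by Amdhd2 (6.83) and C8g (6.82). Every group mean was at least 7 in 59 of the 70 genes, and Snapc5 and Ccdc28b alone had a mean under the dim limit, both with JQ1 at 6 h. Sizes of change in those 2 genes are uncertain.

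Other probe sets gave a reading that the rule did not use, though on the same arrays. Of the 70 genes, 37 had 53 further probe sets. With JQ1, 33 of the 53 were lower at 6 h and higher at 48 h, 9 of them past both thresholds, and 2 went the opposite way at both times. Taken singly, 35 of the 53 were lower at 6 h and 49 were higher at 48 h. The early fall was thus repeated less often than the late rise. Among the 23 with a mean of at least 7, 18 showed both directions. The share of further probe sets of all genes that show both directions was not computed, so these counts have no background beside them. Over all 53, the 4 further probe sets of Sspn (1 with a mean of 6.98) and both of Cap2 showed both directions. So did that of Stxbp6 (-0.21 and 1.15 at 6 h and 48 h). Those of Sphkap (-0.50 and 1.40) and Lnx1 (-0.46 and 0.98) did too, with means of 6.94 and 6.55. The other 5 of the 23 bright ones disagreed. They were higher at both times for Pabpn1 (0.66 and 0.69), Ltn1 (0.14 and 0.15), Rere (0.10 and 0.40) and Slc25a23 (0.02 and 0.27), and lower at both for Septin6 (-0.23 and -0.24). The further probe set of Steap2, with a mean of 6.59, was also lower at both (-0.46 and -0.39). The dim further probe set of Pik3ip1 (mean level 5.15) read 0.12 and 0.16.

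The 70 genes were chosen on their JQ1 minus DMSO differences, and a start region is one place where such genes can be compared. The promoters of the 3 genes with the largest swings are shown. Each holds 250 bases before and 50 bases after the RefSeq start, from the GRCr8 assembly, and capitals mark matches to 9 short motifs searched on both strands. G0s2 lies at chr13:107335899-107336198 on the minus strand, Lrrc10 at chr7:54572685-54572984 on the plus strand and Pik3ip1 at chr14:82428065-82428364 on the plus strand.
G0s2: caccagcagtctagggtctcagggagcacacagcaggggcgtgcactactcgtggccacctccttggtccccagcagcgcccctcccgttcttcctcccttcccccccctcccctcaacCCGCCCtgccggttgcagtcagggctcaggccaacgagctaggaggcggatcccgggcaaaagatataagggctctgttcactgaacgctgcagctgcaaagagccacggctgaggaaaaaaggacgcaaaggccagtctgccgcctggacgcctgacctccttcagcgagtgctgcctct
Lrrc10: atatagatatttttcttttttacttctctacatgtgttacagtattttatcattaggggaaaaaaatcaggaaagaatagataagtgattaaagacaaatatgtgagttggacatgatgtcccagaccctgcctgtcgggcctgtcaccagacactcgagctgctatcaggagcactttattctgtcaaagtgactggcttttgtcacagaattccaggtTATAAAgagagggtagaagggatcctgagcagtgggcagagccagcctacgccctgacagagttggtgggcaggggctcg
Pik3ip1: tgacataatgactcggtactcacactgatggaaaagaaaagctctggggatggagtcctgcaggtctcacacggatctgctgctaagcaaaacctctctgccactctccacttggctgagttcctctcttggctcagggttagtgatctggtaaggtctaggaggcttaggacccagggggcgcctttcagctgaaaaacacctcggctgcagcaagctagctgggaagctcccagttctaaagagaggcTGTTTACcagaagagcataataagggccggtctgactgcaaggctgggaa
The capitals are CCGCCC, the reverse complement of the GC box GGGCGG, at -131 in G0s2, the TATA box TATAAA at -30 in Lrrc10, and TGTTTAC, the reverse complement of the forkhead (FOXO) motif GTAAACA, at 1 in Pik3ip1. Positions count from the start site. A match is a description of the letters, not a site or a cause.

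Most motif shares lay near those of all promoters. RefSeq promoters were at hand for 59 of them and for 10893 of all genes. GGGCGG was present in 38 of the 59 (64.4%, against 58.2% of all promoters) and CCAAT, the NF-Y box, in 26 (44.1%, against 37.4%). CATTCC, the TEAD motif, was in 8 (13.6%, against 11.6%) and the E-box CACGTG in 4 (6.78%, against 8.99%). Both TGACTCA (AP-1, 3.80% of all promoters) and TGACGTCA (CRE, 2.92% of all promoters) were in 3 (5.08%). TATAAA was found only in Lrrc10 (1.69%, against 8.35%), GTAAACA only in Pik3ip1 (1.69%, against 2.42%) and TTATGTAA, the D-box, only in Rit1 (1.69%, against 0.532%). The median GC content of the promoters was 60.3%, against 60.0% over all promoters, with 20 CpG dinucleotides against 19.

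Gene length and position were the other features compared. The median genomic span was 36.6 kb (0.913 to 756 kb), against 22.2 kb over 13172 genes and 21.0 kb over the 2258 genes lowered early. The 70 genes lay on 19 chromosomes with at most 7 on 1 of them. Patz1 and Pik3ip1 were neighbours on chromosome 14, 50.1 kb apart with 1 measured gene between, and Tmem234 and Ccdc28b on chromosome 5, 19.7 kb apart with 1 measured gene between. No test was made of these features.

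Comparison with unstimulated cells used arrays that took no part in the 6 h and 48 h conditions of the rule, although it shares the PE arrays with them. It asked where the 70 genes stood before PE. At 6 h of PE with JQ1, 65 of the 70 were lower than in unstimulated cells and 1, Septin6, was higher, against 31.7% and 30.9% of all genes (limma, Benjamini-Hochberg adjusted p under 0.05 over all genes), with a median change of -1.01. The choice of genes low with JQ1 at 6 h favours that direction, and among the 2258 genes lowered early by JQ1 the shares were nearly as far apart, with 91.4% lower and 2.97% higher. At 48 h with JQ1, 26 were higher and 25 lower, against 31.6% and 29.2% of all genes, with a median of 0.02, and 19 passed in neither direction. That last split depends on scaling: with each array centred on its median, which moved the median of all genes by 0.10, 33 were higher and 16 lower. Among the 2258 genes lowered early by JQ1, 82.6% were lower and 5.27% higher than in unstimulated cells at 48 h with JQ1, with a median of -0.52. The 70 are those of the 2258 that the rule kept for being higher with JQ1 than with DMSO at 48 h. The choice itself thus favours this contrast, and nothing is read from it.

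With DMSO the 70 genes were mostly lower than in unstimulated cells at both times. At 6 h of PE with DMSO, 48 of the 70 were lower and 6 higher, against 18.9% and 18.3% of all genes. After 48 h with DMSO, 54 were lower and 7 higher, against 22.6% and 21.4% of all genes. Their median change was -0.41 at 6 h and -0.46 at 48 h, against 0.01 over all genes at both times. Among the 2258 genes lowered early by JQ1, the corresponding shares were 34.5% lower and 22.4% higher at 6 h, and 34.0% and 29.6% at 48 h. The choice of genes lower with DMSO than with JQ1 at 48 h favours low DMSO values at that time. The 2258 were not chosen on the 48 h arrays, so their 48 h shares do not allow for this. Pik3ip1, Dgkb, Pik3r1 and Mtss1 were among the genes of the 70 lower with DMSO at both times. At 6 h, 4 of the 70 lay within 0.3 of the unstimulated mean with JQ1 (57.7% of all genes and 14.7% of the 2258 did), and 24 with DMSO (80.3% and 64.2%). At 48 h the numbers were 37 with JQ1 (61.7% and 29.7%) and 22 with DMSO (78.5% and 60.7%). The choice of genes on the 48 h arrays bears on these 48 h numbers as well. Group means of the 70 genes had a median of 8.17 with JQ1 and 8.74 with DMSO at 6 h, 9.19 with JQ1 and 8.61 with DMSO at 48 h, and 9.23 in unstimulated cells.

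**Figure D2:**
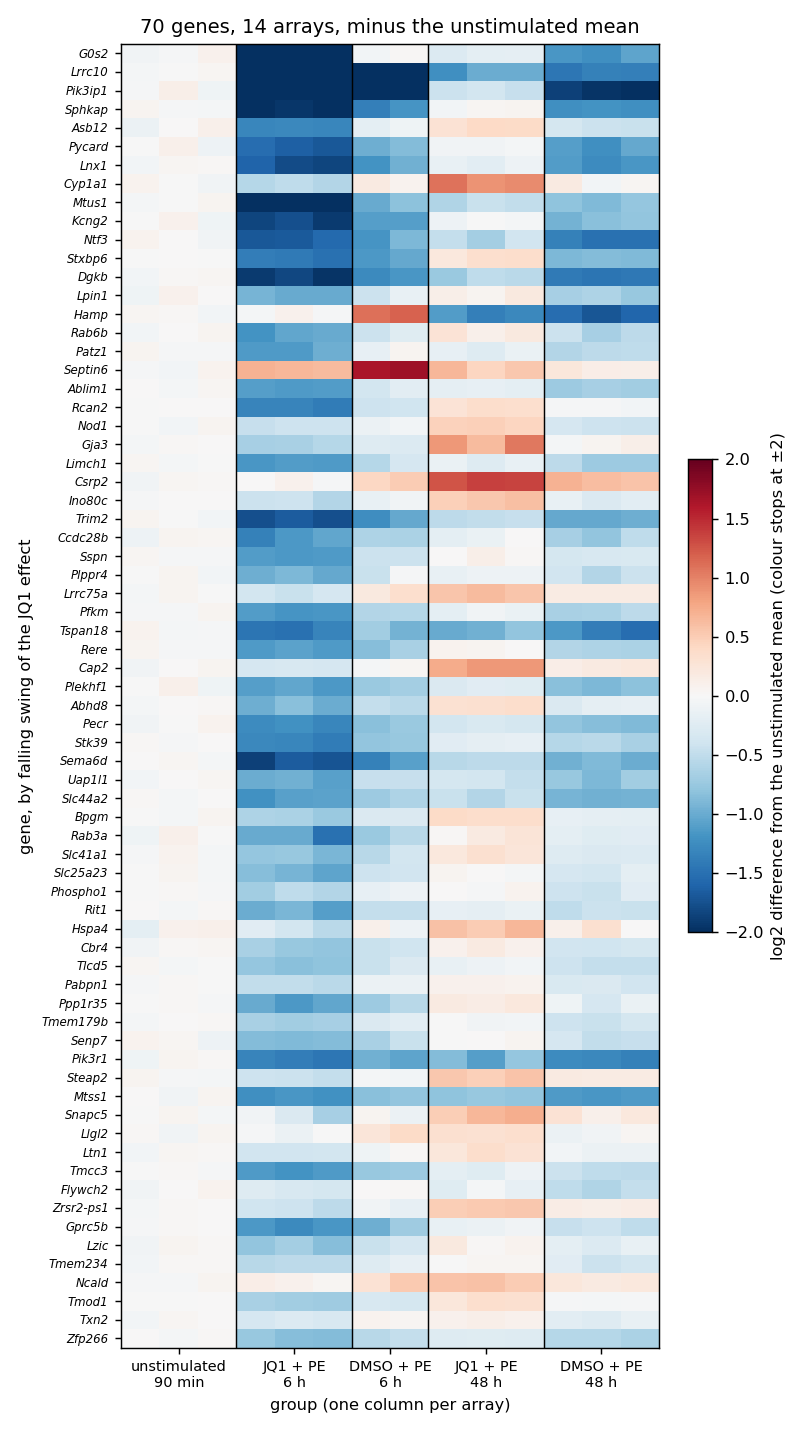
Log2 expression of the 70 genes (rows, by falling swing) on the 14 arrays (columns, by group), minus the mean of the 3 unstimulated arrays, with the colour stopping at 2 in either direction. The JQ1 arrays at 6 h are blue in nearly every row, and the JQ1 arrays at 48 h are pale or red in most rows where the DMSO arrays at 48 h are blue.

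The genes higher under PE were few. At 6 h with DMSO they were Hamp (1.14 ± 0.074), Septin6 (1.66 ± 0.067), Csrp2 (0.46 ± 0.057), Ncald (0.41 ± 0.059), Llgl2 (0.31 ± 0.061) and Lrrc75a (0.27 ± 0.051), each as log2 change ± SE. At 48 h with DMSO they were Csrp2 (0.63 ± 0.051), Ncald (0.20 ± 0.053), Cap2 (0.18 ± 0.046), Septin6 (0.17 ± 0.060), Steap2 (0.17 ± 0.038), Lrrc75a (0.16 ± 0.046) and Zrsr2-ps1 (0.14 ± 0.041). The Septin6 call at 48 h was lost in 6 of the alternatives that leave out 1 array, and that of Ncald with the mean of its probe sets. Llgl2, Lrrc75a and Zrsr2-ps1 were named after their values were seen.

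Time courses within each arm are given as a description, since they are made of the same 4 groups that chose the genes. The rule fixes that the change between 6 h and 48 h is at least 0.6 greater with JQ1 than with DMSO, and it favours a rise with JQ1. With JQ1, 68 of the 70 were higher at 48 h than at 6 h, against 27.2% of all genes and 49.0% of the 2258 genes lowered early, and 1, Hamp, was lower (26.4% of all genes), with a median change of 0.97. Septin6 (-0.12 ± 0.060) was in neither count. With DMSO, 19 were higher at 48 h, against 16.3% of all genes and 30.9% of the 2258, and 22 were lower, against 18.4% and 24.0%, with a median change of -0.05. When the first DMSO array at 6 h was left out, 11 in place of 19 were higher, and when the first JQ1 array at 48 h was left out, 2 in place of 1 were lower in the JQ1 arm. The DMSO arm thus split in both directions, with 29 genes in neither count. Lrrc10 was higher at 48 h in it (1.36 ± 0.070), and Hamp (-2.75 ± 0.074), Septin6 (-1.50 ± 0.067) and G0s2 (-1.14 ± 0.066) were lower.

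**Figure D3:**
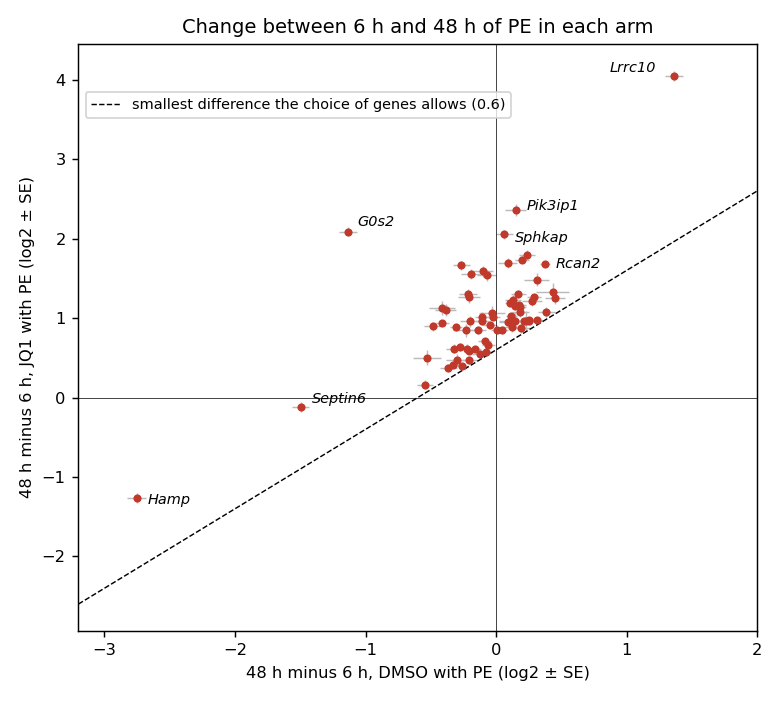
Change in mean log2 expression from 6 h to 48 h of PE with DMSO (horizontal axis) and with JQ1 (vertical axis) for the 70 genes, with standard errors of the limma fit and a dashed line at the smallest difference between arms that the choice of genes allows. Most points lie above 0 on the vertical axis and scatter around 0 on the horizontal one, with Hamp at the lower left and Lrrc10 at the upper right.

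By known function, 55 of the 70 genes were put into 9 role groups and 15 were left as other, after their values were seen. Lipid, sugar and mitochondrial metabolism held 10 genes. With JQ1 all 10 were lower than in unstimulated cells at 6 h, with a median of -0.84. At 48 h 3 were lower and 4 higher with JQ1 (median 0.06), while with DMSO 9 were lower and none was higher (median -0.37). Of all genes at 48 h, 29.2% were lower and 31.6% higher with JQ1, and 22.6% lower and 21.4% higher with DMSO. Of the 70, 25 were lower and 26 higher with JQ1, and 54 lower and 7 higher with DMSO. At 6 h with JQ1, 92.9% of the 70 were lower than in unstimulated cells, as were 91.4% of the 2258 genes lowered early. That share was 31.7% over all genes. Nothing about a role is read from the 6 h counts. The role counts here and below carry the same choice of genes as the 70. No difference between roles was tested. Values per array are given below as log2 expression in replicate order, and differences as log2 ± SE.

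G0s2 encodes an inhibitor of the triglyceride lipase ATGL, the enzyme that starts fat breakdown in lipid droplets, and its promoter is the first of those above. At 6 h G0s2 had 9.52, 9.67 and 9.55 with JQ1, against 11.83 and 11.91 with DMSO. At 48 h G0s2 had 11.61, 11.69 and 11.71 with JQ1, against 10.72, 10.65 and 10.83 with DMSO. Unstimulated G0s2 was 11.82, 11.86 and 11.97. JQ1 arrays at 6 h lay far below every other group (-2.31 ± 0.059 against unstimulated cells, adjusted p = 6.5e-12), whereas DMSO arrays at 6 h stayed within the unstimulated range. By 48 h the JQ1 arrays lay just under the unstimulated ones (-0.22 ± 0.059, adjusted p = 0.0067, a call lost with arrays centred on their medians), and the DMSO arrays lay further below (-1.15 ± 0.059, adjusted p = 1.4e-08). The 2 arms changed places, the JQ1 arm higher by 2.09 at 48 h than at 6 h and the DMSO arm lower.

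Lpin1 encodes a phosphatidate phosphatase of triglyceride synthesis that also acts with PPAR coactivators in the nucleus. At 6 h Lpin1 had 7.98, 7.91 and 7.91 with JQ1, against 8.48 and 8.77 with DMSO. At 48 h Lpin1 had 9.03, 8.96 and 9.11 with JQ1, against 8.25, 8.30 and 8.16 with DMSO. Unstimulated Lpin1 was 8.82, 9.002 and 8.91. At 48 h the JQ1 arrays overlapped the unstimulated ones and the DMSO arrays lay below them (-0.68 ± 0.073, adjusted p = 8.6e-06).

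Cyp1a1 encodes a cytochrome P450 induced through the aryl hydrocarbon receptor. At 6 h Cyp1a1 had 7.32, 7.39 and 7.31 with JQ1, against 8.08 and 7.98 with DMSO. At 48 h Cyp1a1 had 8.99, 8.81 and 8.84 with JQ1, against 8.08, 7.85 and 7.94 with DMSO. Unstimulated Cyp1a1 was 7.97, 7.90 and 7.83, close to both DMSO groups, and neither PE comparison passed (adjusted p = 0.21 at 6 h and 0.54 at 48 h). Against unstimulated cells the JQ1 arrays were lower at 6 h (-0.56 ± 0.066, adjusted p = 7.1e-06) and higher at 48 h (0.98 ± 0.066, adjusted p = 4.3e-08). Its reversal thus stood on the JQ1 arrays at both times.

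Pfkm, the muscle form of phosphofructokinase that commits glucose to glycolysis, was the 1 gene of the set on the glycolysis list. At 6 h Pfkm had 9.76, 9.70 and 9.72 with JQ1, against 10.29 and 10.30 with DMSO. At 48 h Pfkm had 10.69, 10.80 and 10.75 with JQ1, against 10.23, 10.24 and 10.35 with DMSO. Unstimulated Pfkm was 10.86, 10.85 and 10.92. All 4 PE groups lay below the unstimulated arrays, with the JQ1 arrays at 48 h the nearest (-0.13 ± 0.043, adjusted p = 0.019). That late call with JQ1 was lost with centred arrays, with the mean of probe sets, without unstimulated replicate 3 and without JQ1 48 h replicate 1. Of the 28 measured genes on that list, 12 were lower and 7 higher with JQ1 at 6 h, and 11 lower and 12 higher at 48 h. The list median difference was -0.07 at 6 h and -0.06 at 48 h, near the all-gene medians of 0.00 and 0.02. Eno3, the muscle enolase, was lower with JQ1 at both times (-0.89 and -1.48), and Txnip, an inhibitor of glucose uptake, was higher at both (1.21 and 1.45). Aldoc, an aldolase, had -0.14 at 6 h, which did not pass, and the highest late difference of the list (1.62). Fatty acid oxidation genes, a list of 31 with no gene of the set, were split as well. Of these, 12 were lower and 8 higher with JQ1 than with DMSO at 6 h, and 7 lower and 12 higher at 48 h. Of all 13184 genes, 3794 (28.8%) were lower and 3362 (25.5%) higher in that contrast at 6 h. At 48 h, 3901 (29.6%) were lower and 3957 higher. These all-gene counts also belong beside the glycolysis list above and the JQ1 minus DMSO counts of lists below.

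The other 6 metabolic genes had smaller swings. Bpgm makes the 2,3-bisphosphoglycerate that tunes haemoglobin in red cells, and its JQ1 minus DMSO difference was -0.37 at 6 h and 0.54 at 48 h. Pecr, a peroxisomal enoyl-CoA reductase of fatty acid elongation, had -0.46 and 0.50. Phospho1, a phosphatase that acts on phosphocholine and phosphoethanolamine, had -0.46 and 0.38. Slc25a23, a calcium-regulated ATP-magnesium carrier of mitochondria, had -0.55 and 0.31. Cbr4, a subunit of a mitochondrial ketoacyl reductase, and Txn2, the mitochondrial thioredoxin, were at the thresholds given above. Cbr4 at 48 h with JQ1 was just above unstimulated cells (0.12 ± 0.046, adjusted p = 0.046), as was Txn2 (0.09 ± 0.038, adjusted p = 0.049). Both calls were lost under most of the alternatives run.

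Actin, sarcomere and membrane skeleton genes also numbered 10. At 6 h with JQ1, 8 were lower than in unstimulated cells and 1 higher (median -1.13), against 92.9% and 1.43% of the 70. Late in the JQ1 arm 5 were lower and 4 higher (median -0.06), and late in the DMSO arm 6 were lower and 3 higher (median -0.49). Sarcomere and cytoskeleton genes of a fixed list of 35, none of them in the set, had with JQ1 12 lower and 16 higher at 6 h, and 19 lower and 9 higher at 48 h.

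Lrrc10 encodes a heart-enriched leucine-rich repeat protein that binds actin and sits at the Z-disc. At 6 h Lrrc10 had 6.52, 6.61 and 6.54 with JQ1, against 8.87 and 8.98 with DMSO. At 48 h Lrrc10 had 10.45, 10.69 and 10.69 with JQ1, against 10.23, 10.33 and 10.31 with DMSO. Unstimulated Lrrc10 was 11.64, 11.67 and 11.72. It was the lowest of the 70 against unstimulated cells with JQ1 at 6 h (-5.12 ± 0.063, adjusted p = 8.9e-14), where its mean of 6.56 came near the dim limit. All PE groups lay under the unstimulated arrays, and both arms came part of the way back by 48 h, leaving changes of -1.07 ± 0.063 with JQ1 and -1.39 ± 0.063 with DMSO. The late gap between the arms was small beside the distance both had from unstimulated cells.

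Csrp2, a LIM-domain protein of the actin skeleton, and Cap2, which binds actin monomers, were raised rather than lowered late. At 6 h Csrp2 had 10.29, 10.38 and 10.26 with JQ1, against 10.70 and 10.79 with DMSO. At 48 h Csrp2 had 11.54, 11.66 and 11.63 with JQ1, against 10.99, 10.90 and 10.86 with DMSO. Unstimulated Csrp2 was 10.22, 10.32 and 10.31. JQ1 arrays at 6 h overlapped the unstimulated ones, whereas at 48 h they stood above every other group (1.32 ± 0.051 against unstimulated cells, adjusted p = 2.4e-10). At 6 h Cap2 had 10.89, 10.92 and 10.89 with JQ1, against 11.19 and 11.27 with DMSO. At 48 h Cap2 had 11.98, 12.10 and 12.10 with JQ1, against 11.37, 11.42 and 11.44 with DMSO. Unstimulated Cap2 was 11.16, 11.25 and 11.29, overlapping DMSO at 6 h. Its 48 h arrays with JQ1 were again the highest (0.83 ± 0.046 against unstimulated cells, adjusted p = 7.7e-09).

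Septin6, a filament-forming GTP-binding protein of the cell cortex, had a different course. At 6 h Septin6 had 8.004, 7.96 and 7.93 with JQ1, against 8.93 and 8.999 with DMSO. At 48 h Septin6 had 7.97, 7.73 and 7.84 with JQ1, against 7.54, 7.44 and 7.42 with DMSO. Unstimulated Septin6 was 7.28, 7.25 and 7.38, lower than all other groups. With JQ1 the 6 h and 48 h arrays overlapped (0.66 ± 0.060 and 0.54 ± 0.060 against unstimulated cells). With DMSO it stood further above unstimulated cells at 6 h (1.66 ± 0.067, adjusted p = 3.5e-09) and less so at 48 h (0.17 ± 0.060, adjusted p = 0.04). The further Septin6 probe set was not higher with JQ1 at 48 h, as given above.

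Mtus1, a microtubule-associated protein, and Mtss1, which bends membranes and binds actin, stayed below unstimulated cells throughout. At 6 h Mtus1 had 7.98, 8.17 and 7.97 with JQ1, against 9.24 and 9.43 with DMSO. At 48 h Mtus1 had 9.65, 9.80 and 9.75 with JQ1, against 9.44, 9.36 and 9.47 with DMSO. Unstimulated Mtus1 was 10.21, 10.23 and 10.30. JQ1 at 6 h was the lowest of its groups, and no PE array reached the unstimulated ones. Its further probe sets read -0.52 and -1.25 at 6 h, and 0.07 and 0.20 at 48 h. At 6 h Mtss1 had 10.94, 10.999 and 10.94 with JQ1, against 11.32 and 11.36 with DMSO. At 48 h Mtss1 had 11.35, 11.40 and 11.37 with JQ1, against 11.02, 10.999 and 11.02 with DMSO. Unstimulated Mtss1 was 12.17, 12.08 and 12.22, and JQ1 at 6 h overlapped DMSO at 48 h, as JQ1 at 48 h overlapped DMSO at 6 h. Late values were down against unstimulated cells in both arms (-0.78 ± 0.039 with JQ1 and -1.15 ± 0.039 with DMSO). The further Mtss1 probe sets, dim with means of 6.09 and 5.93, read 0.11 and 0.06 at 6 h, and 0.19 and -0.0017 at 48 h.

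The other 4 genes of this role had smaller swings than Lrrc10 and Mtus1. Ablim1 and Limch1 encode LIM-domain actin-binding proteins, and their JQ1 minus DMSO differences were -0.83 and -0.68 at 6 h, and 0.52 and 0.48 at 48 h. Sspn, sarcospan of the dystrophin complex, was the brightest gene of the set, with a mean of 12.77 in unstimulated cells. Its differences were -0.71 and 0.38. Tmod1, which caps the pointed ends of thin filaments, had -0.34 and 0.32.

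**Figure D4:**
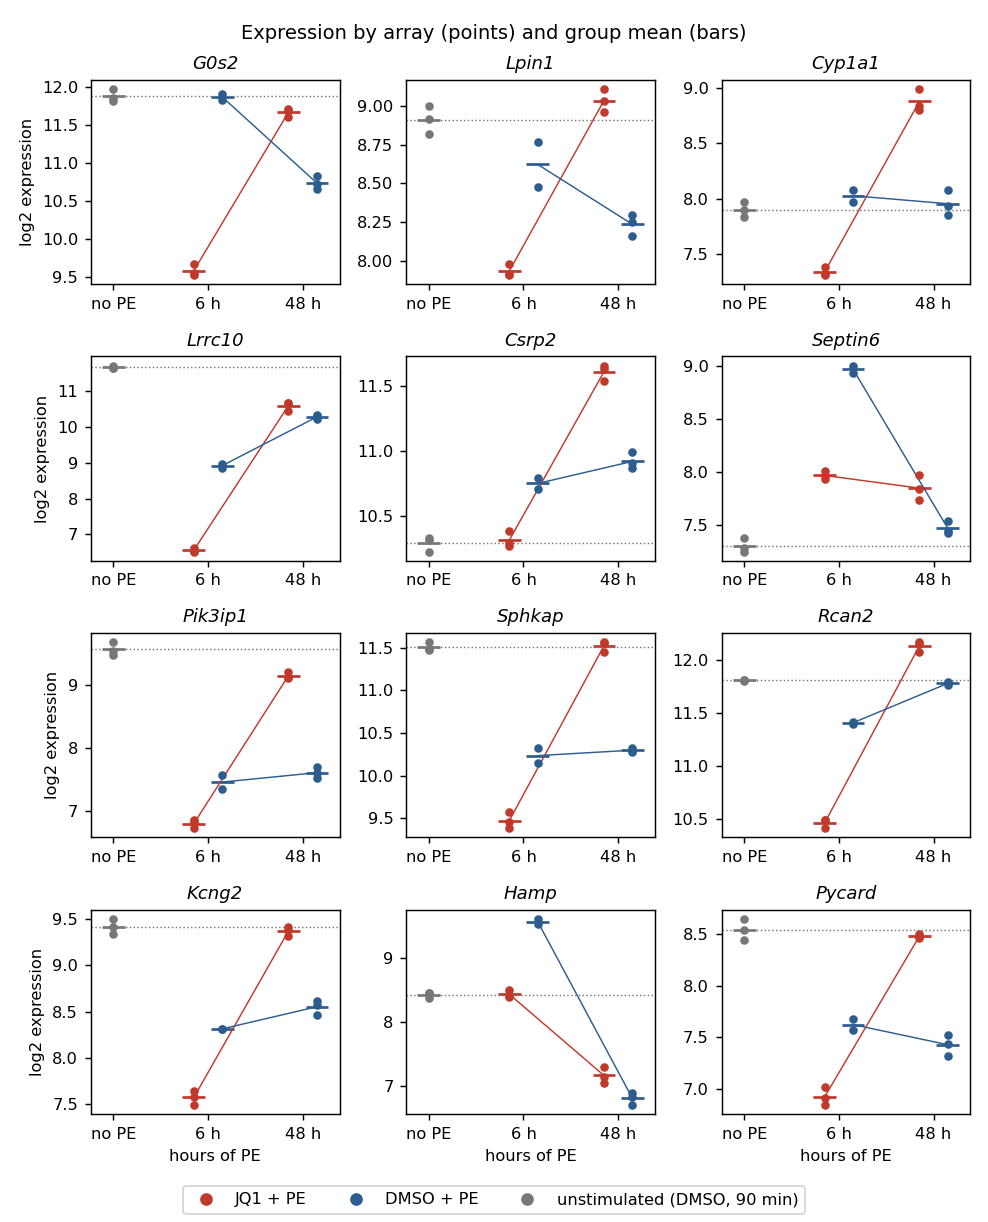
Log2 expression of 12 genes on every array (points) with group means (bars), at no PE, 6 h and 48 h, for JQ1 with PE (red), DMSO with PE (blue) and unstimulated cells (grey, mean dotted), each panel on its own axis that does not start at 0. The red and blue lines cross between 6 h and 48 h in each panel, by a rise of the red line in most and by a fall of the blue line in Septin6 and Hamp.

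Signalling enzymes, anchors and inhibitors numbered 9. At 6 h, 8 of the 9 were lower than in unstimulated cells and none was higher with JQ1 (median -1.35), and 8 were lower and 1 higher with DMSO (median -0.84). By 48 h, 5 were lower and 2 higher with JQ1 (median -0.16), and 7 were lower and 1 higher with DMSO (median -0.59). Of the 70 at 6 h, 92.9% were lower and 1.43% higher with JQ1, and 68.6% and 8.57% with DMSO. Over all genes at 6 h, the shares were 31.7% and 30.9% with JQ1, and 18.9% and 18.3% with DMSO.

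Pik3ip1 encodes a membrane protein that restrains PI3 kinase, and its promoter is the third of those above. At 6 h Pik3ip1 had 6.72, 6.81 and 6.85 with JQ1, against 7.35 and 7.56 with DMSO. At 48 h Pik3ip1 had 9.14, 9.21 and 9.12 with JQ1, against 7.70, 7.61 and 7.51 with DMSO. Unstimulated Pik3ip1 was 9.54, 9.68 and 9.48. Both early groups and DMSO at 48 h lay far below the unstimulated arrays, and only JQ1 at 48 h came close to them (-0.42 ± 0.070, adjusted p = 0.00019, against -1.96 ± 0.070 with DMSO, adjusted p = 7e-10). Its late gap of 1.55 between the arms was the widest of the 70. With the mean of its probe sets, JQ1 at 48 h no longer passed against unstimulated cells.

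Pik3r1 encodes p85alpha, the regulatory subunit of PI3 kinase itself. At 6 h Pik3r1 had 7.18, 7.12 and 7.05 with JQ1, against 7.54 and 7.45 with DMSO. At 48 h Pik3r1 had 7.63, 7.39 and 7.73 with JQ1, against 7.24, 7.20 and 7.15 with DMSO. Unstimulated Pik3r1 was 8.42, 8.56 and 8.52, above all PE arrays. It stayed low late in both arms, with changes of -0.92 ± 0.074 with JQ1 and -1.30 ± 0.074 with DMSO against unstimulated cells. On the fixed FOXO, atrophy and insulin signalling list, which holds Pik3ip1 among 29 measured genes, 9 were lower and 9 higher with JQ1 at 6 h, and 11 were lower and 12 higher at 48 h. Ccng2, an atypical cyclin, was higher with JQ1 at both times (0.74 and 1.42), and Igf1, the growth factor, lower at both (-1.44 and -1.67).

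Sphkap anchors protein kinase A. At 6 h Sphkap had 9.46, 9.57 and 9.38 with JQ1, against 10.15 and 10.33 with DMSO. At 48 h Sphkap had 11.45, 11.56 and 11.56 with JQ1, against 10.28, 10.32 and 10.29 with DMSO. Unstimulated Sphkap was 11.57, 11.49 and 11.48. Late JQ1 arrays overlapped the unstimulated ones (change 0.01 ± 0.058, adjusted p = 0.87), while the DMSO arrays at both times lay below them (-1.21 ± 0.058 at 48 h, adjusted p = 6.5e-09). A p that misses the threshold does not show that the levels were equal.

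Rcan2 encodes a regulator of calcineurin, the calcium-dependent phosphatase of hypertrophic signalling. At 6 h Rcan2 had 10.49, 10.49 and 10.41 with JQ1, against 11.40 and 11.42 with DMSO. At 48 h Rcan2 had 12.08, 12.17 and 12.16 with JQ1, against 11.79, 11.78 and 11.76 with DMSO. Unstimulated Rcan2 was 11.81, 11.81 and 11.82. JQ1 was below the unstimulated mean at 6 h (-1.35 ± 0.035) and above it at 48 h (0.32 ± 0.035, adjusted p = 4e-06), while DMSO at 48 h differed from it by -0.03 ± 0.035 (adjusted p = 0.52). Both arms were higher at 48 h than at 6 h, the JQ1 arm by more. A further Rcan2 probe set read -0.64 and 0.15.

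Dgkb encodes a diacylglycerol kinase, which removes the second messenger that Gq signalling makes. At 6 h Dgkb had 6.97, 7.07 and 6.92 with JQ1, against 7.61 and 7.72 with DMSO. At 48 h Dgkb had 8.15, 8.39 and 8.34 with JQ1, against 7.48, 7.42 and 7.46 with DMSO. Unstimulated Dgkb was 8.83, 8.91 and 8.92, above all PE arrays, with JQ1 at 48 h the nearest (-0.60 ± 0.062, adjusted p = 2.6e-06). Ncald, neurocalcin delta, a calcium sensor, was the 1 signalling gene higher than in unstimulated cells with DMSO, at both times. At 6 h Ncald had 8.46, 8.40 and 8.37 with JQ1, against 8.62 and 8.84 with DMSO. At 48 h Ncald had 8.90, 8.90 and 8.84 with JQ1, against 8.56, 8.49 and 8.53 with DMSO. Unstimulated Ncald was 8.30, 8.30 and 8.37, and the JQ1 arrays at 6 h overlapped it. The remaining 3 were Stk39, the SPAK kinase of ion transport (-0.56 and 0.39), Rit1, a RAS-like GTPase (-0.53 and 0.30), and Gprc5b, an orphan G protein-coupled receptor (-0.35 and 0.34), each as JQ1 minus DMSO at 6 h and 48 h.

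Channels and transporters numbered 5, of which 1 was lower and 3 higher than in unstimulated cells at 48 h with JQ1 (median 0.26), and 3 lower and 1 higher with DMSO (median -0.27). Kcng2 encodes a silent potassium channel subunit that modifies Kv2 channels. At 6 h Kcng2 had 7.58, 7.65 and 7.49 with JQ1, against 8.31 and 8.32 with DMSO. At 48 h Kcng2 had 9.32, 9.41 and 9.38 with JQ1, against 8.47, 8.57 and 8.62 with DMSO. Unstimulated Kcng2 was 9.41, 9.50 and 9.33. JQ1 arrays at 48 h overlapped the unstimulated ones, and DMSO arrays lay below them (-0.86 ± 0.055, adjusted p = 8.7e-08). Gja3, a connexin of gap junctions, went above the unstimulated level late with JQ1 (0.85 ± 0.082, adjusted p = 1.3e-06) but not with DMSO (0.04 ± 0.082, adjusted p = 0.71).

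Steap2 is a metalloreductase of iron and copper uptake whose probe sets disagreed. At 6 h Steap2 had 10.35, 10.33 and 10.29 with JQ1, against 10.73 and 10.71 with DMSO. At 48 h Steap2 had 11.30, 11.24 and 11.33 with JQ1, against 10.95, 10.93 and 10.92 with DMSO. Unstimulated Steap2 was 10.82, 10.73 and 10.73. The brightest probe set rose late with JQ1 (0.53 ± 0.038 against unstimulated cells, adjusted p = 7.8e-08), but with the mean of its probe sets the JQ1 minus DMSO difference at 48 h was -0.01. Slc41a1, a magnesium transporter, had -0.36 at 6 h and 0.53 at 48 h, and Slc44a2, a choline transporter-like protein, -0.45 and 0.46.

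Secreted and guidance factors were 3, and all were lower than in unstimulated cells at 48 h in both arms, with medians of -0.54 with JQ1 and -1.45 with DMSO. Hamp encodes hepcidin, the peptide hormone that closes the iron exporter ferroportin. At 6 h Hamp had 8.39, 8.51 and 8.41 with JQ1, against 9.53 and 9.61 with DMSO. At 48 h Hamp had 7.31, 7.06 and 7.14 with JQ1, against 6.90, 6.71 and 6.84 with DMSO. Unstimulated Hamp was 8.46, 8.45 and 8.37. JQ1 arrays at 6 h overlapped the unstimulated ones, DMSO arrays at 6 h lay above them, and all 48 h arrays lay below. It was the 1 gene that fell with time in both arms, and it fell less with JQ1, so the late difference arose between 2 lowered groups. Ntf3, the neurotrophin-3 gene, changed late by -0.51 ± 0.088 with JQ1 and -1.45 ± 0.088 with DMSO. Sema6d, a transmembrane semaphorin, changed by -0.54 ± 0.067 with JQ1 and -0.95 ± 0.067 with DMSO.

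Innate immune sensing was represented by a pair. Pycard encodes ASC, the adaptor that joins sensors to caspase-1 in the inflammasome. At 6 h Pycard had 7.02, 6.91 and 6.85 with JQ1, against 7.57 and 7.68 with DMSO. At 48 h Pycard had 8.47, 8.47 and 8.50 with JQ1, against 7.44, 7.32 and 7.53 with DMSO. Unstimulated Pycard was 8.54, 8.65 and 8.44. Late JQ1 arrays overlapped the unstimulated ones, while DMSO at both times was below (-1.11 ± 0.065 at 48 h, adjusted p = 4e-08). Nod1, a cytosolic sensor of bacterial peptidoglycan, went above unstimulated cells late with JQ1 (0.45 ± 0.040, adjusted p = 5.9e-07) and below them with DMSO (-0.39 ± 0.040, adjusted p = 6e-06). Leukocyte markers were dim, with 7 of 11 under the dim limit at 48 h in both arms and 4 lower and 1 higher with JQ1, and their part in these values was not tested.

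Protein folding, ubiquitin and SUMO genes numbered 6. In the JQ1 arm at 48 h 1 was lower and 3 were higher than in unstimulated cells (median 0.15), and in the DMSO arm 4 were lower and none was higher (median -0.42). Asb12 encodes a SOCS-box protein, a type that brings substrates to cullin ubiquitin ligases. At 6 h Asb12 had 8.57, 8.59 and 8.57 with JQ1, against 9.67 and 9.79 with DMSO. At 48 h Asb12 had 10.17, 10.28 and 10.26 with JQ1, against 9.53, 9.44 and 9.42 with DMSO. Unstimulated Asb12 was 9.76, 9.88 and 9.98. JQ1 at 6 h was the lowest group and JQ1 at 48 h the highest. Against unstimulated cells the changes were -1.30 ± 0.056 (adjusted p = 6.1e-10) and 0.36 ± 0.056 (adjusted p = 9.3e-05).

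Lnx1 encodes a ubiquitin ligase that binds the Notch regulator Numb. At 6 h Lnx1 had 7.59, 7.40 and 7.35 with JQ1, against 7.99 and 8.22 with DMSO. At 48 h Lnx1 had 9.03, 8.98 and 9.08 with JQ1, against 8.06, 7.92 and 8.02 with DMSO. Unstimulated Lnx1 was 9.13, 9.23 and 9.20. Late JQ1 arrays lay just under the unstimulated ones and did not pass (-0.15 ± 0.072, adjusted p = 0.086), and DMSO arrays lay far below (-1.18 ± 0.072, adjusted p = 5.8e-08). Among the others, as JQ1 minus DMSO at 6 h and 48 h, Trim2, a ubiquitin ligase, had -0.59 and 0.51. Ltn1, the ligase of ribosome quality control, had -0.35 and 0.38, but its early fall rests on 1 of 3 probe sets, as both further ones were higher with JQ1 at 6 h (0.14 and 0.41). Hspa4, an HSP110 chaperone, had -0.38 and 0.44, and Senp7, which removes SUMO chains, -0.33 and 0.45.

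Nuclear and RNA-processing factors numbered 6, of which 2 were lower and 2 higher than in unstimulated cells at 48 h with JQ1 (median 0.06), and 5 lower and none higher with DMSO (median -0.43). Patz1, a zinc finger transcription factor, had the lowest early difference among them (-1.03 at 6 h and 0.35 at 48 h), and Ino80c, a subunit of the INO80 chromatin remodeller, the highest late one (-0.36 and 0.76). Rere, an atrophin-family corepressor, had -0.36 and 0.66. Pabpn1, the nuclear poly(A)-binding protein, had -0.39 and 0.41 on its brightest probe set, against the disagreeing one above. At 6 h Zfp266 had 9.82, 9.72 and 9.71 with JQ1, against 10.02 and 10.10 with DMSO. At 48 h Zfp266 had 10.33, 10.33 and 10.32 with JQ1, against 10.002, 10.01 and 9.94 with DMSO. That zinc finger gene stayed below its unstimulated values of 10.59, 10.54 and 10.61 in all PE groups. At 6 h Snapc5 had 6.42, 6.21 and 5.83 with JQ1, against 6.55 and 6.38 with DMSO. At 48 h Snapc5 had 6.98, 7.16 and 7.22 with JQ1, against 6.78, 6.59 and 6.70 with DMSO. Snapc5, a subunit of the complex that starts small nuclear RNA genes, was thus the 1 gene with overlapping arms at 6 h, and 2 of its 3 JQ1 arrays at 6 h lay under the dim limit. A further Snapc5 probe set, with a mean of 6.55, was higher with JQ1 at both times (0.16 and 0.43), so it did not repeat the early fall.

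Vesicle and small GTPase proteins numbered 4, of which 1 was lower and 2 higher than in unstimulated cells at 48 h with JQ1 (median 0.17), and 3 lower and none higher with DMSO (median -0.69). Stxbp6, or amisyn, binds SNARE proteins and limits vesicle fusion. At 6 h Stxbp6 had 9.86, 9.83 and 9.75 with JQ1, against 10.11 and 10.23 with DMSO. At 48 h Stxbp6 had 11.46, 11.59 and 11.60 with JQ1, against 10.35, 10.39 and 10.37 with DMSO. Unstimulated Stxbp6 was 11.24, 11.26 and 11.25. Late JQ1 arrays stood above the unstimulated ones (0.30 ± 0.047, adjusted p = 9.7e-05) and the DMSO arrays below (-0.88 ± 0.047, adjusted p = 1.8e-08). Rab6b, a Golgi GTPase, had JQ1 minus DMSO differences of -0.75 and 0.73 at 6 h and 48 h, Rab3a, a GTPase of regulated secretion, -0.52 and 0.37, and Plekhf1, an endosomal lipid-binding protein, -0.38 and 0.60.

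The other 15 genes were less well characterised or fitted no group. In JQ1 arrays at 48 h 4 were lower and 5 higher than in unstimulated cells (median -0.05), and in DMSO arrays 12 were lower and 2 higher (median -0.40). Plppr4 had the lowest early difference among them (-0.73 at 6 h, 0.35 at 48 h), and Abhd8 and Ccdc28b had the highest late ones (both 0.54, after -0.43 and -0.56 at 6 h). Tspan18, a tetraspanin, stayed the lowest of these against unstimulated cells late (-0.92 ± 0.096 with JQ1 and -1.35 ± 0.096 with DMSO). Lrrc75a had -0.65 and 0.41, Uap1l1 -0.55 and 0.39, and Tlcd5 -0.44 and 0.36 at 6 h and 48 h. The last 8 were Ppp1r35, Tmem179b, Tmcc3, Lzic, Llgl2, Flywch2, Zrsr2-ps1 and Tmem234, with differences of -0.43 to -0.32 at 6 h and 0.30 to 0.38 at 48 h. Zrsr2-ps1 is named as a pseudogene, and its probe set may also read RNA of the parent gene.

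**Figure D5:**
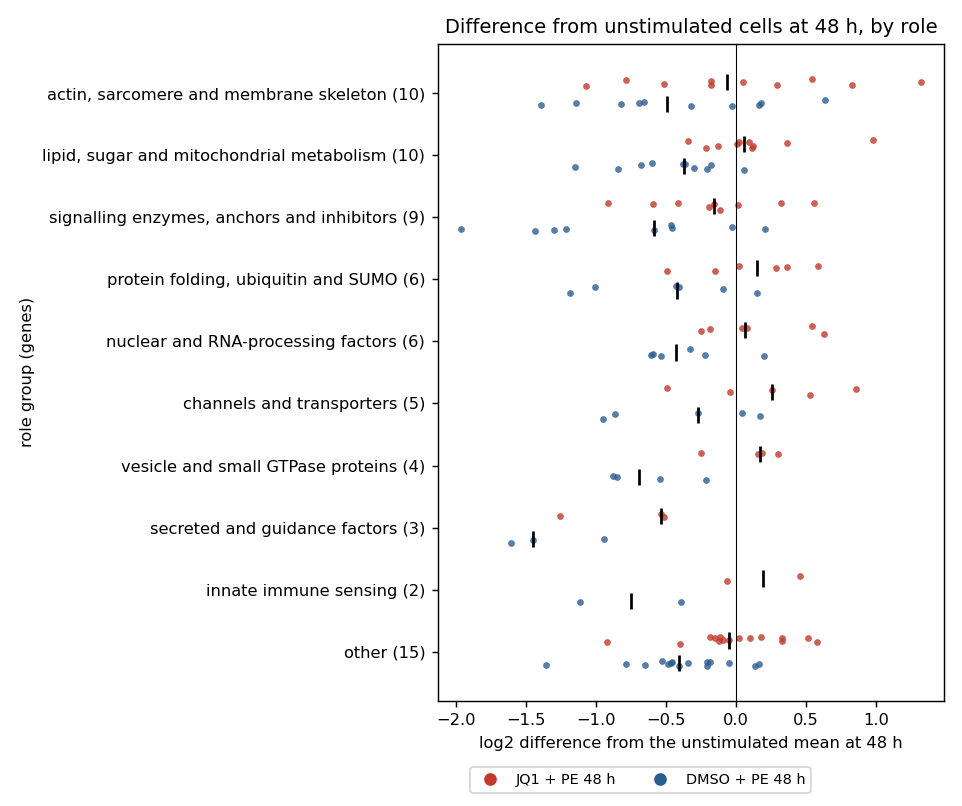
Log2 difference from the unstimulated mean at 48 h of PE for each of the 70 genes, by role group, with JQ1 (red, upper row) and DMSO (blue, lower row) and the group median as a black bar. In every group the median with JQ1 lies to the right of the median with DMSO, which the choice of genes requires. The blue medians all lie below 0, a direction that the choice of genes at 48 h favours.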

How the data were processed

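Biotin-labelled RNA of cultured heart muscle cells was read on Affymetrix rat arrays, as the labels' protocols state. The authors deposited 1 log2 value per probe set and array. Summarization, background correction, normalization and genome build are not given in the sources used here, and limma is named, with no role, in the submitters' processing notes. Of 20223 probe sets, 18510 had 1 gene symbol, 305 several and 1402 none, and 6 were controls. Symbols were updated through the RefSeq rat table of GRCr8 (18461 by gene identifier, 1 by accession, and 48 kept the platform's symbol). For the 3797 genes with several probe sets, the one with the highest mean over 14 arrays was used, which can favour 1 transcript form.

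Groups came from the sample labels. All 14 arrays entered 1 model with a mean per group in limma 3.58.1 (R 4.3.3, lmFit and eBayes, 9 residual degrees of freedom), with two-sided p-values adjusted by Benjamini-Hochberg over 13184 genes and a threshold of 0.05. Errors are standard errors of that fit. Array number limits the precision: the median standard error of a JQ1 minus DMSO difference was 0.068 at 6 h and 0.060 at 48 h. The fit was checked on simulated data. The chosen genes, the lists and the role groups were set with earlier results of these data known.

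Genes named with full values are those with the 10 largest swings, the 5 lowest differences at 6 h and the 5 highest at 48 h. To these were added up to 4 raised and 4 lowered per comparison with unstimulated cells by smallest adjusted p, those on a fixed list, and those next to a threshold. Of the genes next to a threshold, Cbr4, Txn2, Lzic and Ccdc28b were not given by array. Lpin1 met none of these conditions and was given by array all the same. All other genes of the set were given by role. From a described list, up to 3 genes outside the set that follow its majority and 1 that opposes it could be named. Replicate numbers did not pair the arrays: over 26 same-numbered pairs of arrays the correlation of deviations from group means ran from -0.27 to 0.18 and passed 0.1 in 3. Promoters are RefSeq sequences of 300 bases.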

Additional observations from a re-analysis of the deposited data

How the results depend on the processing

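Of 273 counts recomputed under alternatives, 265 stayed within 1.5 times the reported count. The number of genes chosen was 167 with thresholds of 0.2 and 24 with 0.4. It was 49 with the mean of probe sets (45 shared with the 70), 63 with quantile normalization repeated (59 shared) and 58 with arrays centred on their medians (44 shared). Leaving out 1 array gave 59 to 85 genes, the extremes coming from the 2 early DMSO arrays (58 shared without replicate 2, 67 without replicate 1). Against unstimulated cells, JQ1 at 6 h had 2 genes higher in place of 1 with quantile normalization and with centring, and JQ1 at 48 h had 16 lower in place of 25 with centring. Between 6 h and 48 h, 2 in place of 1 were lower with JQ1 with the mean of probe sets, and leaving out 1 array gave 1 to 2. With DMSO, leaving out 1 array gave 11 to 21 higher and 16 to 26 lower. For Steap2 the JQ1 minus DMSO difference at 48 h turned to -0.0133 with the mean of probe sets. The causes were not tested. Of 4053 recomputed values of named genes, 3902 kept direction and side of the threshold or moved by less than the spread between arrays, 82 no longer passed, 68 moved by more and 1 reversed. With the replicate number as a replicate block, JQ1 at 48 h had 23 higher and 23 lower against unstimulated cells, and no count moved by over 1.5 times. Signal over background limits the genes with a group mean under 6.23, Snapc5 and Ccdc28b.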
